A study of Mus musculus with 4 samples.

Results

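The nuclear-encoded subunits of oxidative phosphorylation were compared by complex in the livers of mice from reciprocal crosses. Members were chosen by gene symbol: Ndufa, Ndufb, Ndufc, Ndufs and Ndufv genes without the Ndufaf assembly factors for complex I, Sdha to Sdhd for complex II, the Uqcr genes and Cyc1 for complex III, the Cox4 to Cox8 subunits for complex IV, and the Atp5 genes for complex V. Of 18193 genes with a probe set that carries 1 symbol, 83 were members, and each was read by its probe set of highest mean log2 signal over the 4 arrays. Complex I had 36 members, complex II 4, complex III 9, complex IV 17 and complex V 17.

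RNA from whole liver slices of 9-month-old males kept on chow, with no intervention, was hybridised to 4 Affymetrix arrays. The dam of an AB6F1 male (n = 2) was AJ and his sire B6. For a B6AF1 male (n = 2) the strains were the other way round. Both crosses therefore carry 1 AJ and 1 B6 copy of every autosomal subunit gene, whereas the mitochondria, and in males the X chromosome, come from the dam. The labels call the mice of a cross biological replicates, and the source identifiers of each cross form a block of their own, so that handling and cross cannot be told apart.

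The respiratory chain of the inner mitochondrial membrane passes electrons from NADH (complex I) and succinate (complex II) through coenzyme Q to complex III, cytochrome c and complex IV, where oxygen is reduced. Complexes I, III and IV pump protons, and complex V, the ATP synthase, lets them flow back to make ATP. Mitochondrial DNA encodes core subunits of every complex but complex II, so each of the others is assembled from products of both genomes, and in these crosses the mitochondrial genome comes from a different strain. Hepatocytes are rich in mitochondria and use this ATP for glucose, urea and lipid metabolism.

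Values are MAS5 signals, a linear intensity per probe set, scaled so that the trimmed mean of each array is 500. Of the 83 members, 78 had a mean log2 signal at or above that of the middle probe set of the array, a signal of 60.9, and were tested with 11671 other genes. The 5 left out were Ndufb4, Cox4i2, Cox6b2, Cox7b2 and Cox8b. The tested members were read by bright probe sets, with a median mean signal of 13016 against 508 for all 11749 genes tested, and 70 of them reached 5000. Their arrays also agreed closely: the median replicate SD of log2 signal was 0.067 for members and 0.19 for all genes tested. For other genes with a mean signal of 5000 or more it was 0.12, so part of that gap goes with brightness. The liver label was borne out by hepatocyte markers, whose 12 measured genes summed to a signal of 385847 to 414194 in AB6F1 and 409663 to 464752 in B6AF1.

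No member of any complex passed the test between the crosses. Differences are given as log2 signal in AB6F1 minus B6AF1, and with limma and Benjamini-Hochberg adjustment over all genes tested 0 of 78 members passed 0.05, where 25 genes, or 0.213%, did so overall. The smallest adjusted p among members was 0.487. At an unadjusted p under 0.05 there was 1 lower member, Ndufa3, and 0 higher, against 3.88% lower and 5.84% higher among all genes tested. The differences ran from -0.35 for Cox8c to 0.40 for Cox7c. On the deposited scale, the 95% interval of the difference lay inside a 1.5-fold change in either direction for 71 of the 78 members. The other 7 were Ndufs8, Ndufb1, Ndufa4l2, Cox6a2, Cox7a1, Cox7c and Cox8c. That count was not repeated under other scalings or fits. Smaller differences remain possible. With 2 arrays a side, the smallest exact permutation p that any 1 gene can reach is 0.333, two-sided.

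**Figure D1:**
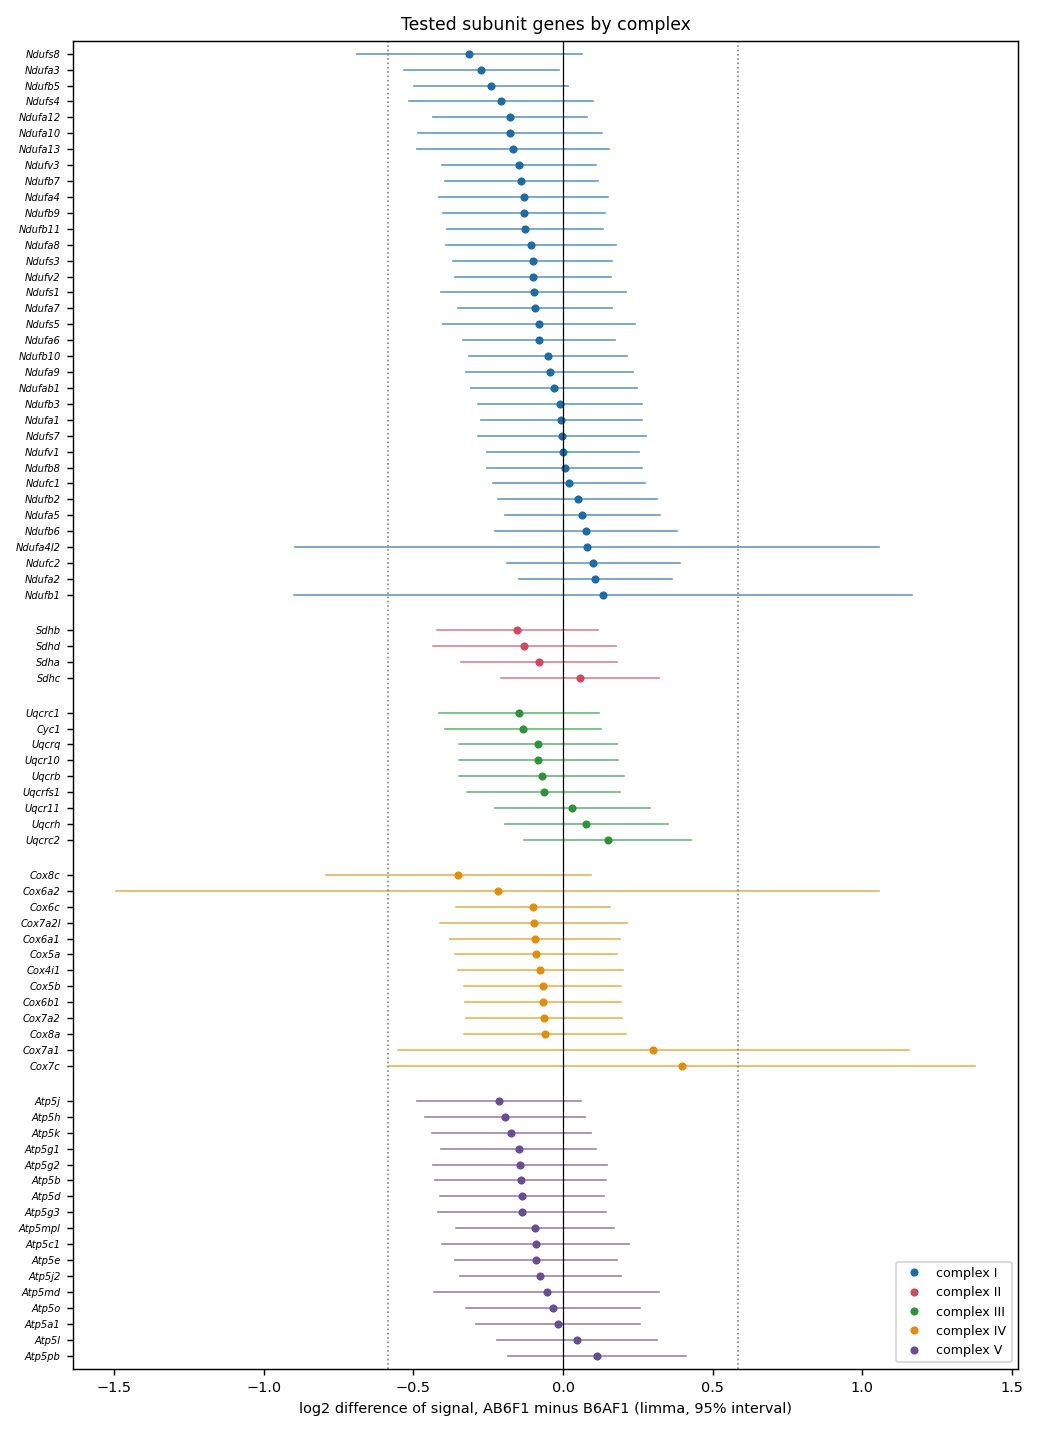
Log2 difference of signal, AB6F1 minus B6AF1, on the horizontal axis for the 78 tested members, grouped and coloured by complex, with points for limma estimates and bars for 95% intervals; dotted lines mark a 1.5-fold change. Only the interval of Ndufa3 leaves out 0, and the intervals of 71 members lie between the dotted lines.

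The small differences lay mostly below 0 on the deposited scale in each complex. Of 78 members 60 were below 0, or 76.9%, against 46.5% of all genes tested, and the median was -0.08, or -5.6%, against 0.02. By complex the median was -0.08 for I (25 of 35 below 0), -0.10 for II (3 of 4), -0.07 for III (6 of 9), -0.08 for IV (11 of 13) and -0.09 for V (15 of 17). The medians of the complexes span 0.03, and the replicate SD of a complex's median over the arrays ran from 0.019 for I to 0.074 for II. This side of 0 depends on the scaling: after cyclic loess 39 of the 78 members were below 0 and the medians of complexes III and IV were 0.02 each, and after quantile normalization complex III was at 0.01. The medians of I, II and V stayed below 0 under both, from -0.01 to -0.05. Centring each array on its median, which lowers AB6F1 against B6AF1 by 0.14, gave -0.21 to -0.24 for the complexes and -0.11 for all genes tested.

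**Figure D2:**
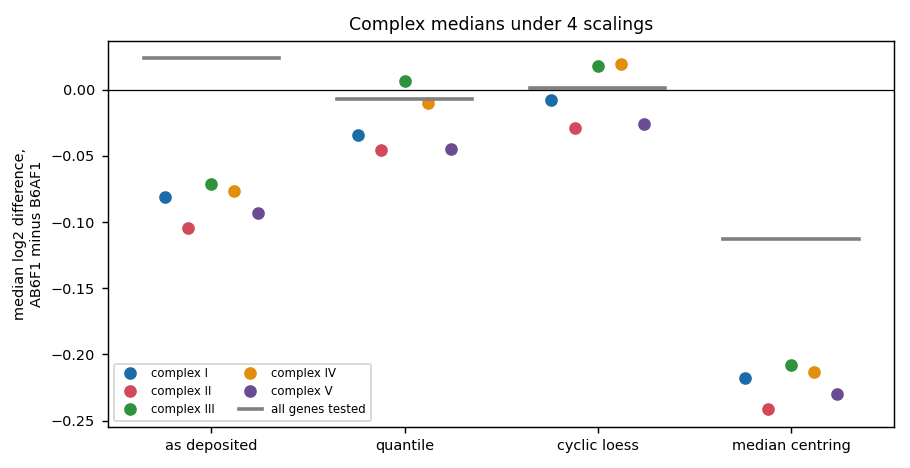
Median log2 difference, AB6F1 minus B6AF1, over the tested members of each complex (points) and over all genes tested (grey bars), for the deposited scaling, quantile normalization, cyclic loess and median centring. The complexes lie between -0.10 and -0.07 as deposited, and between -0.03 and 0.02 after cyclic loess.

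Other bright genes lay on the same side. A signal limit of 5000, chosen after values were seen, left 1045 genes that are no members, and their median difference was -0.09, with 69.3% below 0. The 70 members above that limit had a median of -0.08, with 80% below 0. For 37 members both AB6F1 arrays lay below both B6AF1 arrays, and for 4 above them, against a background of 18.7% lower and 22.5% higher. The 37 are 47.4% of the tested members; among the 1045 other bright genes 374, or 35.8%, did not overlap and were lower.

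**Figure D3:**
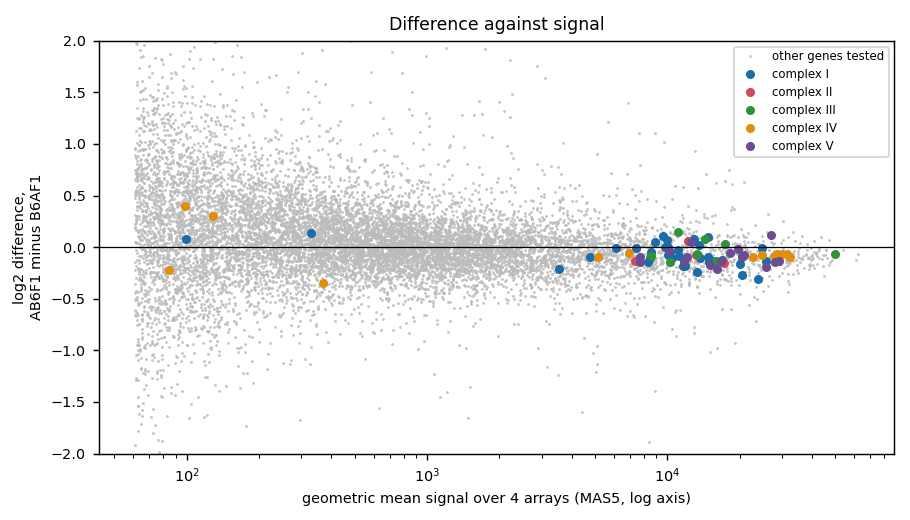
Log2 difference, AB6F1 minus B6AF1, against the geometric mean signal of the 4 arrays on a log axis, with members coloured by complex over all other genes tested in grey; 52 genes beyond 2 in either direction are not drawn. Most members sit at signals above 5000, where the grey points also lie mostly below 0.

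The separate arrays show the size of these shifts beside the spread between mice. For each gene the mean of its 4 log2 signals was subtracted, and the median over a complex was taken on each array. In AB6F1 complex I had medians of -0.045 and -0.008, below the 0.041 and 0.038 of B6AF1. In AB6F1 complex V had -0.042 and -0.058, below the 0.039 and 0.104 of B6AF1. The crosses were apart in both complexes, and also in III and IV. Complex II was less even, with -0.112 and 0.034 in AB6F1 against 0.035 and 0.057 in B6AF1. Its AB6F1 replicate 2 lay next to the B6AF1 arrays, so its median rested on AB6F1 replicate 1: it was -0.02 without that array and -0.17 without AB6F1 replicate 2. Without B6AF1 replicate 2 the medians of III and IV were -0.03 and -0.04.

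**Figure D4:**
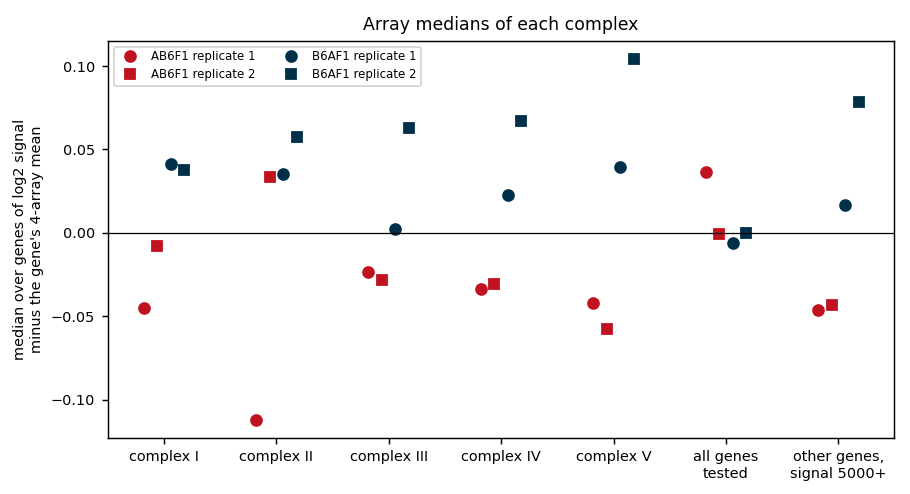
Median over genes of log2 signal minus the gene's mean over 4 arrays, for each array (red AB6F1, dark blue B6AF1; circles replicate 1, squares replicate 2), by complex, for all genes tested and for other genes of signal 5000 or more. In each complex both AB6F1 arrays lie below both B6AF1 arrays, with AB6F1 replicate 2 of complex II, at 0.034, next to B6AF1 replicate 1, at 0.035.

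Within complex I, the members of smallest p were the accessory membrane-arm subunits Ndufa3 and Ndufb5 and the iron-sulfur subunit Ndufs8, which hands electrons on towards coenzyme Q. Ndufa3 had signals of 18223 and 18955 in AB6F1 and 22315 and 22601 in B6AF1. The replicates lay close together and the crosses apart, at 18589 ± 517 against 22458 ± 202 (SD, n = 2 each), a log2 difference of -0.27 (95% interval -0.53 to -0.01; limma adjusted p = 0.487). Its other probe set above the filter gave -0.13. Ndufb5 had 11936 and 12476 in AB6F1 and 14305 and 14520 in B6AF1, a log2 difference of -0.24 (limma adjusted p = 0.533). These signals did not overlap either, but the other probe set of Ndufb5 lay on the opposite side at 0.13. Ndufs8 had the lowest difference of the complex, -0.31 (limma adjusted p = 0.583), with signals of 19320 and 23746 in AB6F1 against 29653 and 23866 in B6AF1. For Ndufs8 the higher AB6F1 array all but met the lower B6AF1 array, while the arrays of each cross lay far apart. All 6 probe sets of Ndufs8 were below 0, from -0.31 to -0.13, and for the next brightest pair the replicates were closer and the crosses apart, with 13034 and 12778 in AB6F1 against 14534 and 15542 in B6AF1 for the brighter of them.

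By module, the 9 tested subunits of the NADH-oxidising N module had a median log2 difference of -0.10 (7 below 0), the 4 of the quinone-reducing Q module -0.05 (3 below 0) and the 20 of the membrane arm -0.05 (14 below 0). No module held a member that passed. The flavoprotein Ndufv1, which binds NADH, was at 0.00, with signals of 10140 and 10031 in AB6F1 and 10138 and 10028 in B6AF1. The difference of Ndufv1 was the smallest in size of all members. The highest of the complex was Ndufb1, a membrane-arm subunit, at 0.13 (limma adjusted p = 0.945), with signals of 243 and 486 in AB6F1 and 217 and 453 in B6AF1. For Ndufb1 the replicates of each cross differed far more than the crosses. Ndufa4, named for complex I but now placed in complex IV, was at -0.13, and moving it left the median of complex IV at -0.08.

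The X-linked subunits are the members whose own allele differs in full, since these males carry only their dam's copy. Both are accessory subunits of the membrane arm of complex I. Ndufa1 had 25826 and 23767 in AB6F1 (AJ allele) and 25279 and 24473 in B6AF1 (B6 allele), a log2 difference of -0.01 with a 95% interval from -0.28 to 0.26. The crosses overlapped. Ndufb11 had 16422 and 15780 in AB6F1 and 17217 and 17952 in B6AF1, a log2 difference of -0.13 (95% interval -0.39 to 0.13; limma adjusted p = 0.747). Its arrays did not overlap, and its other probe sets gave -0.13 and -0.16.

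Complex II, succinate dehydrogenase, is also an enzyme of the tricarboxylic acid cycle and has nuclear-encoded subunits alone. The iron-sulfur subunit Sdhb had 15530 and 17057 in AB6F1 and 18333 and 17855 in B6AF1, a log2 difference of -0.15 (limma adjusted p = 0.703). The flavoprotein Sdha was at -0.08, with 12449 and 13150 against 13364 and 13693. Neither overlapped between crosses. The membrane anchors lay on opposite sides: Sdhd was at -0.13, with 6382 and 7670 in AB6F1 against 7564 and 7741 in B6AF1, and Sdhc at 0.06, with 12011 and 12883 against 11883 and 12039. Both anchors overlapped, and a further probe set of each had the opposite sign, 0.12 for Sdhd and -0.13 for Sdhc.

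Complex III takes electrons from coenzyme Q to cytochrome c. Its core subunits Uqcrc1 and Uqcrc2 were its lowest and highest members. Uqcrc1 had 9722 and 9767 in AB6F1 and 10305 and 11300 in B6AF1, a log2 difference of -0.15 (limma adjusted p = 0.711). Uqcrc2 had 11856 and 11536 in AB6F1 and 11198 and 9934 in B6AF1, a log2 difference of 0.15 (limma adjusted p = 0.721). The crosses overlapped for neither, but the other probe set of Uqcrc2 was at -0.08. Cytochrome c1 (Cyc1) had 14790 and 15606 against 16399 and 16964, at -0.13. The Rieske iron-sulfur protein Uqcrfs1 was at -0.07, and the remaining members lay between -0.08 and 0.08.

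Complex IV, cytochrome c oxidase, has subunits with a widely expressed or liver form and a form of muscle, lung or testis. The 5 widely expressed or liver forms Cox4i1, Cox6a1, Cox6b1, Cox7a2 and Cox8a were nearly alike, with log2 differences from -0.09 to -0.06 and adjusted p of at least 0.830 by limma. Cox6a1 had 31946 and 30609 in AB6F1 and 31473 and 35418 in B6AF1. Cox4i1 had 25066 and 23412 against 24483 and 26647. Cox8a had 6583 and 6982 against 6806 and 7333. These 3 overlapped between crosses. Cox6b1, with 30663 and 31057 against 32699 and 31943, and Cox7a2, with 29247 and 29307 against 31124 and 30119, did not. Cox6c, at -0.10, had 21873 and 22094 in AB6F1 and 23271 and 23841 in B6AF1, but its other probe set was at 0.07.

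The forms of other tissues were dim or not tested. Cox4i2 of lung had signals from 34.8 to 42.8, Cox6b2 of testis 5.5 to 32.2, Cox7b2 3.9 to 35.4 and Cox8b of muscle and brown fat 6.3 to 53.5, all under the filter signal of 60.9 on all 4 arrays. The heart and muscle forms Cox6a2 and Cox7a1 passed the filter at low signals, with 56.4 and 108 in AB6F1 against 72.3 and 114 in B6AF1, and 160 and 127 against 134 and 100. Their log2 differences of -0.22 and 0.30 had 95% intervals from -1.49 to 1.06 and from -0.55 to 1.15. Of 8 skeletal muscle markers 6 were below the filter as well, and the 8 summed to 425 to 472 in AB6F1 and 252 to 410 in B6AF1. Cox8c, a testis form, had the lowest difference of all members, -0.35, with 340 and 317 in AB6F1 and 423 and 415 in B6AF1 (limma adjusted p = 0.601). Cox7c, with the highest difference of all, 0.40, was read here by dim probe sets only, and the brighter had 97.5 and 131 in AB6F1 and 81.5 and 90.3 in B6AF1 (limma adjusted p = 0.793). The crosses did not overlap for Cox8c or Cox7c. Cox7a2l, which links complexes III and IV into supercomplexes, was at -0.10 and overlapped.

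Complex V had differences from -0.21 to 0.11, with an SD over its genes of 0.085. The lowest were the peripheral stalk subunits Atp5j and Atp5h and the membrane subunit Atp5k. Atp5j had 14144 and 15654 in AB6F1 and 16918 and 17622 in B6AF1, a log2 difference of -0.21 (limma adjusted p = 0.604). Atp5h had 24718 and 23444 in AB6F1 and 26757 and 28386 in B6AF1, at -0.20 (limma adjusted p = 0.629). Atp5k had 13722 and 14745 in AB6F1 and 15663 and 16410 in B6AF1, at -0.17 (limma adjusted p = 0.662). None of these overlapped between crosses. The other probe set of Atp5h gave -0.04, and those of Atp5k -0.14 and -0.13. The highest was Atp5pb, the stalk's b subunit, at 0.11, with 30263 and 26142 against 26935 and 25098, which overlapped. Atp5o was at -0.03 by its brightest probe set, but its other probe set lay at 0.46. That probe set had 6249 and 5208 in AB6F1 and 4662 and 3678 in B6AF1, which did not overlap (limma adjusted p = 0.568 over all probe sets). By sector, the 5 subunits of F1, which makes ATP, had a median of -0.09, the 3 of the proton-carrying c ring -0.14 and the 9 of the stalk and membrane sector -0.08. The c ring genes Atp5g1, Atp5g2 and Atp5g3 encode the same mature protein, and their differences ran from -0.15 to -0.14.

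Most members have more than 1 probe set, which shows how far a value depends on the choice of the brightest. Of 170 probe sets of members 147 passed the filter and 107 of these were below 0, with a median of -0.08, and 0 passed when all probe sets were tested with limma. Of 43 members with 2 or more such probe sets, 26 had them all on the same side of 0 and 17 on both sides. The sign thus differed between probe sets of 1 gene in 39.5% of these members. Some of these rest on a dim probe set, as for Uqcrq, where one with signals of 18.2 to 113 was at 1.07. In others both probe sets were bright, as for Ndufb5, at -0.24 and 0.13.

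Other mitochondrial gene lists were set beside the subunits, and none of their genes passed limma over all genes. The only mitochondrially encoded subunit measured was ND5 of complex I, whose genome is AJ in AB6F1 and B6 in B6AF1. ND5 had 41851 and 39941 in AB6F1 and 39015 and 48318 in B6AF1, a log2 difference of -0.09 (95% interval -0.42 to 0.24; limma adjusted p = 0.868; 0.04 after cyclic loess). The crosses overlapped. Assembly factors had medians of -0.06 for complex I (10 of 15 below 0) and -0.09 for complexes II to V (16 of 28). Their genes of smallest p were Ecsit and Ndufaf6, at -0.31 and -0.48, and Pet100 and Sdhaf2, at -0.34 and -0.40, with limma adjusted p from 0.460 to 0.561.

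Electron carriers and coenzyme Q synthesis had a median of 0.00 over 15 genes, 7 of them below 0. Coq8a was at -0.44 and Coq4 at 0.42, with limma adjusted p of 0.475 and 0.497. The tricarboxylic acid cycle had a median of -0.02 over 17 genes. After cyclic loess the medians of the cycle and of the outer membrane and import genes were 0.07 and 0.05. In the cycle list Dlat, of the pyruvate dehydrogenase complex, was at 0.49 and Idh3a at -0.25, with limma adjusted p of 0.384 and 0.601, and citrate synthase (Cs), often used as a measure of mitochondrial mass, was at 0.03, with 4492 and 4580 in AB6F1 and 4494 and 4387 in B6AF1. Regulators of mitochondrial gene expression had a median of 0.05 over 17 genes (6 below 0), with Polg2 of the mitochondrial DNA polymerase at -0.51 and the nuclear receptor Esrra at 0.33 (limma adjusted p = 0.525 and 0.554). Outer membrane and import genes had a median of -0.03 over 17 genes, with Timm50 at -0.45 and Vdac1 at -0.26 (limma adjusted p = 0.384 and 0.501). Of the 4 tested uncoupling and adenine nucleotide carriers, Slc25a4 was at 0.58 and Slc25a5 at -0.10 (limma adjusted p = 0.526 and 0.805).

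Markers of macrophages and of stellate cells and fibroblasts lay mostly above 0, with medians farther from it than those of the subunits. Each of 16 tested macrophage markers had a higher value in AB6F1, and 0 passed (median 0.89; summed signal of 19 listed 14495 to 23424 in AB6F1 and 9716 to 13002 in B6AF1, with Itgam, Marco and Timd4 below the filter), Lyz2 and Lgals3 being at 1.28 and 1.11. Of 13 stellate cell and fibroblast markers 12 were higher (median 0.77; sums 16185 to 19956 and 11347 to 12220), and Col3a1 and Col1a2 rose, by 1.81 and 1.37 on the log2 scale (limma adjusted p = 0.00931 and 0.0402). Neither collagen passed with eBayes without trend or with the mean of all probe sets of a gene (limma adjusted p from 0.187 to 0.987). Nor did either without 1 of the B6AF1 arrays, and Col1a2 missed after quantile normalization at 0.0520. With the mean of all probe sets the difference of Col1a2 itself fell to 0.03, whereas that of Col3a1 was 1.40. Hepatocyte markers lay below 0 like the subunits, at a median of -0.10 with 10 of 12 negative (0.02 after cyclic loess), Cps1 at -0.33 and Tat at -0.60 having the smallest p. Lymphocyte markers gave no one side (6 tested, median 0.21, Cd8a at -1.04 and Cd79b at 0.54; sums 2337 to 4967 and 1325 to 6898), and the 4 adipocyte markers with a probe set were below the filter, with sums of 82 to 159 and 39.4 to 144. In whole liver, fewer cells of a type and less RNA per cell cannot be told apart, and the part of cell makeup in the subunit values was not tested.

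Some motifs were more common in the promoters of the subunit genes than in all promoters, and the choice by symbol did not use sequence. RefSeq windows of GRCm38.p6 from 250 bases before to 50 after a gene's start were used for 67 of the 83 members, as 72 windows. The other 16 had no window in the comparison. Among them, Ndufa2 and Atp5a1, which share a chromosome, were left out by choice of chromosome. Only the member windows were restricted in this way, not the windows of all genes. Motifs were searched as exact letters on both strands. The full NRF1 palindrome was in 5.56% of member windows and 0.971% of all 32851 windows, and its core GCATGCGC, which the palindrome contains, in 12.5% and 2.71%. The ETS motif CCGGAAG, bound by GABP among others, was in 23.6% of member windows against 8.86%, the YY1 motif AANATGGC in 20.8% against 6.05%, and the ERR motif AAGGTCA in 11.1% against 4.72%. The CCAAT box was about as common in both, at 40.3% and 37.4%. Member windows were richer in G and C, with a median of 58.5% against 52.7%, and the windows of all genes were not matched to them for this. These factors, with their coactivators of the PGC-1 family, are known regulators of respiratory chain genes.

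Promoters of 6 members are printed to show the motifs, with at least 1 from each complex and 1 from the X chromosome. Each is the 250 bases before the start, on the gene's strand, and capitals mark a motif match in either orientation.
Ndufb5 (I, chr3:32736813-32737062, plus strand): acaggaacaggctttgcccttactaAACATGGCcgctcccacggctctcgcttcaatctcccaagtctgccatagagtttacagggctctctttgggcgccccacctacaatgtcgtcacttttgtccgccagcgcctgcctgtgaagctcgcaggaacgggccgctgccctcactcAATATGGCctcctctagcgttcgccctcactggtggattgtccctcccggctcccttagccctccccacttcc
Ndufb11 (I, chrX:20617620-20617869, minus strand): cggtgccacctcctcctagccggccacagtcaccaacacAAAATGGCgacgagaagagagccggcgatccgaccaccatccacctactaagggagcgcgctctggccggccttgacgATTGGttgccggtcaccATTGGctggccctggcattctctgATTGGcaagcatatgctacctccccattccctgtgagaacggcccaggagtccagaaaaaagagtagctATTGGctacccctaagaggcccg
Sdhb (II, chr4:140961021-140961270, plus strand): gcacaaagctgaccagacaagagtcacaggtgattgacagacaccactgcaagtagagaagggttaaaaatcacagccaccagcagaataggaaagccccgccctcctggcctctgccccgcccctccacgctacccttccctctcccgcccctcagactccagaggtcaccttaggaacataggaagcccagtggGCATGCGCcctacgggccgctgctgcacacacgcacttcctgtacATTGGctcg
Uqcrh (III, chr4:116075071-116075320, minus strand): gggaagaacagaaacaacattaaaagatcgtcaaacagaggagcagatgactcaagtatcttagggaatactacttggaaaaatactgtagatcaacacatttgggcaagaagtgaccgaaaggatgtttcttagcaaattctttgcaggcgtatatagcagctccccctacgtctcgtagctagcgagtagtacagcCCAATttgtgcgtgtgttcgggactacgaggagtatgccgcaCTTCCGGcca
Cox6a1 (IV, chr5:115348959-115349208, minus strand): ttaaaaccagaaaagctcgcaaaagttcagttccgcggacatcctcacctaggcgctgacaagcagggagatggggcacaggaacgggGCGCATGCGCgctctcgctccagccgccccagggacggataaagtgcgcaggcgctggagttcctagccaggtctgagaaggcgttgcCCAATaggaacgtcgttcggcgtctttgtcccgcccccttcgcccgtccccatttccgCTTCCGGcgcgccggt
Atp5k (V, chr5:108434400-108434649, minus strand): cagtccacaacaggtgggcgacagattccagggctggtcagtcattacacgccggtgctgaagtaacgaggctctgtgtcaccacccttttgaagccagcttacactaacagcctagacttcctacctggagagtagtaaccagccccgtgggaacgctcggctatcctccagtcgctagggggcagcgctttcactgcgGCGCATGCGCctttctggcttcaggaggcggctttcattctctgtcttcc
In Ndufb5 and Ndufb11 the capitals show YY1 matches, and in Ndufb11 also 4 CCAAT boxes in reverse. Cox6a1 and Atp5k hold the full NRF1 palindrome and Sdhb its core with a CCAAT box in reverse, while Cox6a1 and Uqcrh hold the ETS motif in reverse and a CCAAT box each.

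Tested members that had a window in the comparison were set side by side, with and without these motifs. The median log2 difference was -0.15 for the 4 with the full NRF1 palindrome, which ran from -0.17 for Atp5k to -0.09 for Cox6a1, and -0.08 for the 59 without it. It was -0.11 for the 9 with the NRF1 core and -0.08 for the 54 without it. It was -0.09 for the 17 with the ETS motif and -0.08 for the 46 without, and -0.09 for the 15 with the YY1 motif and -0.08 for the 48 without. For the ERR motif it was -0.09 for the 7 with it and -0.08 for the 56 without. The CCAAT box went the other way, with -0.08 for the 25 with it and -0.09 for the 38 without. Motif holders ranged widely in each case, for YY1 from -0.31 for Ndufs8 to 0.11 for Atp5pb. After cyclic loess the medians of members with the palindrome, the NRF1 core, the ETS and the YY1 motif were -0.08, -0.04, -0.01 and -0.01, and those of members without each lay at 0.00. For the ERR motif they were -0.01 with and 0.00 without, and for the CCAAT box -0.0002 and 0.006. After quantile normalization the YY1 medians changed order, at -0.018 with the motif and -0.020 without.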

How the data were processed

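Liver RNA of 4 male mice, 2 AB6F1 and 2 B6AF1, was measured on Affymetrix arrays as biotin-labelled cRNA from Trizol-extracted RNA, per the labels' protocols. The deposited values are a linear intensity per probe set from MAS5, per the submitters' processing notes, with no version given; no scanner files or detection calls were used here. From the values, each array's mean without the lowest and highest 2% of 45101 probe sets is 500. Such scaling hides a change shared by all transcripts. The platform annotation gave 1 symbol for 34945 probe sets, updated through the RefSeq table of GRCm38.p6 for 34741; probe sets with several symbols were not used for genes. Genes were represented by their brightest probe set and kept at a mean log2 signal at or above the median of all probe sets other than the 64 controls.

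The log2 signals, with no pseudocount, of 11749 genes were fitted with limma 3.58.1 in R 4.3.3 (lmFit, eBayes with trend; 4.97 prior and 2 residual degrees of freedom), two-sided, with Benjamini-Hochberg adjustment over all genes and a threshold of 0.05; the fit was tested on simulated data. SDs are of signals over 2 arrays, and intervals are limma's at 95%. Lists were described by counts and medians, without list tests. Their members, and those of the complexes, were chosen with earlier results of these data known. Precision is limited by the number of arrays. Of each complex, the text names the 3 members of smallest p and those of highest and lowest difference, with X-linked members and the tissue forms of complex IV; from other lists it names the 2 genes of smallest p, and Cs. Ndufv1, Ndufa4, Uqcrfs1, Cox7a2l, Atp5o and the c ring genes were named after their values were seen. Alternatives covered scaling, filter, probe set choice, variance moderation, a replicate block and each array left out.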

Additional observations from a re-analysis of the deposited data

How the results depend on the processing

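In the 15 other fits and at a threshold of 0.1, 0 of the members passed limma, with smallest adjusted p from 0.253 (without AB6F1 replicate 2) to 0.982 (without B6AF1 replicate 2). Members at an unadjusted p under 0.05 numbered 0 to 4. Genes called overall numbered 25, against 49 after median centring (28 higher, 21 lower), 9 with the mean of all probe sets of a gene, 0 with eBayes without trend (1044 genes and 0 members at an unadjusted p under 0.05), 46 at a threshold of 0.1, 62 with the replicate block and 1 to 242 with 1 array left out. The pairing of replicate numbers rests on the numbers alone (r = -0.03 across genes between deviations of replicate 1 in the crosses), and the block called 0 members.

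The medians of complexes I to V went to -0.034, -0.046, 0.0067, -0.010 and -0.045 under quantile normalization, to -0.0077, -0.029, 0.018, 0.019 and -0.026 under cyclic loess and to -0.218, -0.241, -0.208, -0.213 and -0.230 under median centring. With the mean of all probe sets I and II went to -0.053 and -0.021. With 1 array left out they ran from -0.098 to -0.066 for I, -0.170 to -0.019 for II, -0.095 to -0.033 for III, -0.112 to -0.036 for IV and -0.150 to -0.058 for V. For the other settings they moved by less than the replicate spread of the array medians. Among named members, 7 of 27 changed sign under cyclic loess, 2 under quantile normalization and 3 under median centring; 3 of 25 did so with the mean of all probe sets and 1 to 2 of 27 with each array left out. Leaving out Atp5s and Atp5sl gave no value, since neither was a member. Low signal limits the dim members Ndufa4l2, Cox6a2, Cox7a1 and Cox7c most.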

Other observations

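Some subunit genes are read by probe sets whose annotation carries several symbols, which the choice of members leaves out. The brighter probe set shared by Ndufb4, Ndufb4b and Ndufb4c had signals of 14252 and 14589 in AB6F1 and 16250 and 16811 in B6AF1, whereas the probe set of Ndufb4 alone had 38.0 and 8.2 against 36.4 and 65.0. Ndufs6, a zinc-binding subunit of the N module that shares its probe set with Ndufs6b, had 10606 and 10912 in AB6F1 and 10990 and 10967 in B6AF1, a log2 difference of -0.03. Ndufa11, of the membrane arm, shares one with Ndufa11b and had 4357 and 4301 against 4406 and 4470, a log2 difference of -0.04. These values carry no test.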
